A study of Macaca fascicularis with 22 samples.

Results

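The genes described here encode the proteins of the coagulation cascade and the plasma proteins that check it or dissolve its product. The rule named 10 genes by identifier, and 7 of them were found on the array, with 8 of its 20217 probes. These were the clotting factor genes F2 (NM_000506), F7 (NM_000131), F9 (NM_000133), F12 (NM_000505) and F13B (NM_001994), the inhibitor gene SERPINC1 (NM_000488), and PLG (NM_000301), which had 2 probes. F5, F10 and F11 were not found under the identifiers used. All 8 probes passed the filter on dim signals, which kept 17117 probes.

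RNA came from neonatal cynomolgus macaques (Macaca fascicularis) of low birth weight (LBW, the 5th to 25th centile) or average birth weight (ABW, the 50th to 75th centile), both within the normal range. By the study's account growth was not manipulated, whereas the sample titles read Control for ABW and Treated for LBW. The study describes female neonates sired by a single male. Arrays were labelled skeletal muscle (4 ABW, 4 LBW), liver (3 ABW, 3 LBW) or umbilical cord (4 ABW, 4 LBW). The methods place the collection of liver and muscle on postnatal day 5, whereas the sample labels place it at birth. The labels do not say which animal each array came from, so the p-values measure the spread between these samples.

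Coagulation is a chain of serine proteases that circulate as inactive precursors and activate each other until thrombin turns fibrinogen into fibrin. Most of these precursors, and the antithrombin that inhibits the activated proteases, are made by hepatocytes and secreted into plasma, so their transcripts are known as markers of liver. Fibrin is then cross-linked by factor XIII and later dissolved by plasmin, which is cut from plasminogen.

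A value is the log2 signal of a probe minus the 75th percentile of its array, so 0 is that percentile, and a difference of 1 is a doubling of the signal. Before scaling, this percentile was 2390 on umbilical cord ABW replicate 4 and lay between 315.5 and 1042 on the other 21 arrays. Between 14594 and 17887 probes per array were flagged well above background, and no spot of the 8 probes was saturated. No pair of the 231 pairs of arrays held the same values. The arrays lay on 6 slides. In skeletal muscle slide 1 carried the ABW samples and slide 2 the LBW samples, and an effect of slide cannot be told apart from one of birth weight there. Umbilical cord ABW replicates 3 and 4 (slide 6) were scanned on another day and with another software version than the rest.

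The tissue labels were compared with marker genes, in lists chosen with earlier results of these data known. Of 17 hepatocyte genes listed, 16 were on the array, and all 16 were highest on the arrays labelled umbilical cord, where every array lay above every array of the other labels. Their summed level, in multiples of the array's 75th percentile, was 1339 to 4115 on arrays labelled umbilical cord, 0.531 to 41.4 on those labelled skeletal muscle and 0.324 to 0.995 on those labelled liver. On the arrays labelled liver 8 of the 16 never rose well above background, among them ALB (albumin), APOA1 and AFP. All 11 matrix and smooth muscle genes measured were higher on every array labelled liver than on every array labelled umbilical cord. The data therefore went against the labels liver and umbilical cord, and both are used below only as the names of the arrays.

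The 7 genes were far higher on the arrays labelled umbilical cord than on those of either other label. All 7 were called (limma on the 6 groups, adjusted p under 0.05) in both comparisons, and for all 7 the arrays did not overlap. F9 and F13B had passed the filter only through the umbilical cord groups, where they are high, so their calls here add no support. F2, F7, F12, SERPINC1 and PLG also passed it through groups of another label. Over all probes, 35.6% were called higher in the umbilical cord label than in the liver label and 29.1% higher than in the skeletal muscle label, and 18.7% and 14.4% lay above without overlap. The median difference of the 7 genes was 11.33 against the liver label and 10.25 against the skeletal muscle label on the log2 scale, beside 0.13 and -0.11 for all probes.

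F2 encodes prothrombin, the precursor of thrombin. On the arrays labelled umbilical cord its log2 level was 8.12, 8.23, 7.89 and 6.91 in ABW replicates 1 to 4 and 8.42, 8.31, 8.31 and 8.0 in LBW replicates 1 to 4. On those labelled liver it was -3.75, -5.35 and -5.02 in ABW and -4.32, -4.45 and -5.39 in LBW. The arrays of these labels did not overlap, and the umbilical cord label was higher by 12.74 (SE 0.68, adjusted p = 1.4e-12). Against the skeletal muscle label the difference was 10.45 (SE 0.63, adjusted p = 8.4e-12).

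F7 encodes the protease that starts the cascade when it meets tissue factor. Its log2 level on the arrays labelled umbilical cord was 1.57, 1.56, 1.26 and 0.25 in ABW and 1.74, 2.10, 1.87 and 2.04 in LBW. On those labelled liver it was -7.61, -6.06 and -6.49 in ABW and -5.75, -6.89 and -6.81 in LBW, and 4 of the 6 arrays were well above background. The umbilical cord label was higher than the liver label by 8.15 (SE 0.35) and than the skeletal muscle label by 6.76 (SE 0.32).

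F9 encodes factor IX, whose loss causes haemophilia B. Under the umbilical cord label it read 0.14, 0.01, 0.47 and -0.24 in ABW and -0.70, 0.41, 0.03 and 0.13 in LBW. It was well above background on 0 of the 8 arrays labelled skeletal muscle and on 1 of the 6 labelled liver, LBW replicate 3. Its level in the umbilical cord label was at least 123-fold that in the skeletal muscle label, with the dim arrays set to the lowest signal well above background (adjusted p = 6.1e-15). Against the liver label, with that 1 array above background, the fitted log2 difference was 8.13 (SE 0.32).

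F12 encodes factor XII, which starts the contact pathway. On the arrays labelled umbilical cord it read 7.79, 7.83, 6.46 and 6.71 in ABW and 8.23, 8.26, 8.04 and 7.89 in LBW. On those labelled liver it read between -4.20 and -3.13, above background on all 6. The umbilical cord label was higher than the liver label by 11.33 (SE 0.59) and than the skeletal muscle label by 10.25 (SE 0.54).

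F13B encodes the B subunit of factor XIII, which carries the catalytic A subunit in plasma. It was well above background on 8 of 8 arrays labelled umbilical cord, 0 of 8 labelled skeletal muscle and 0 of 6 labelled liver. The umbilical cord label was at least 48.1-fold the liver label (adjusted p = 4.1e-15) and at least 36.5-fold the skeletal muscle label (adjusted p = 2.5e-15). F13A1, the gene of the A subunit, lay the other way, well above background on 6 of 6 arrays labelled liver and 2 of 8 labelled umbilical cord, and was called lower in the umbilical cord label.

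SERPINC1 encodes antithrombin, the main inhibitor of thrombin and factor Xa. Its log2 level on the arrays labelled umbilical cord was 8.05, 8.25, 8.01 and 7.03 in ABW and 8.42, 8.11, 8.17 and 7.69 in LBW. On those labelled liver it was -3.31, -4.24 and -4.68 in ABW and -4.89, -2.99 and -5.53 in LBW. The umbilical cord label was higher than the liver label by 12.24 (SE 0.69) and than the skeletal muscle label by 10.57 (SE 0.64).

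PLG encodes plasminogen, the precursor of the fibrin-dissolving protease plasmin. Under the umbilical cord label the probe with the higher mean read 7.32, 7.60, 7.12 and 6.45 in ABW and 7.28, 7.10, 7.38 and 7.07 in LBW. Under the liver label it lay between -7.83 and -5.07 and was well above background on 4 of 6. The umbilical cord label was higher than the liver label by 13.50 (SE 0.97) and than the skeletal muscle label by 11.51 (SE 0.90), and the other probe gave 13.78 (SE 0.98) and 11.52 (SE 0.90).

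**Figure D1:**
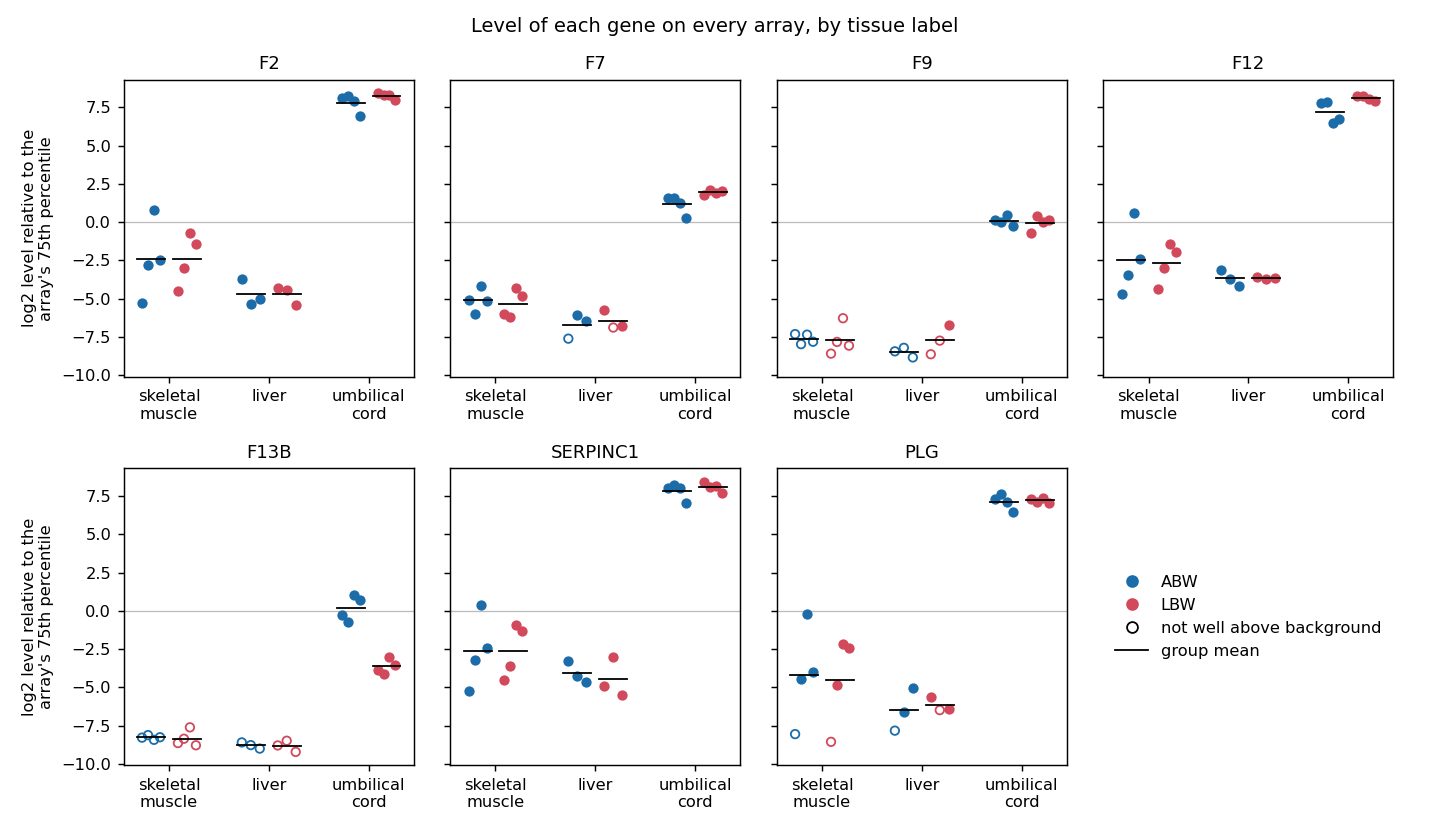
Log2 level of each of the 7 genes relative to the array's 75th percentile (vertical axis), on every array labelled skeletal muscle, liver or umbilical cord (horizontal axis), with ABW in blue, LBW in red, bars at group means and open circles where the probe was not well above background. All 7 genes sit higher on all 8 arrays labelled umbilical cord, and F13B is the gene whose ABW and LBW arrays stand far apart there.

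Slide 4 held arrays of both labels, 2 labelled liver (LBW) and 2 labelled umbilical cord (ABW). Within it all 7 genes were called and the differences lay between 7.31 and 13.90. In a fit of tissue label, birth weight and slide all 7 were called too, at 7.18 to 14.75. That estimate rests on the slide 4 difference, adjusted for birth weight within the liver label, so it is not a separate check.

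The skeletal muscle and liver labels were compared in the same way. Arrays labelled skeletal muscle shared no slide with either other label, so in comparisons with them an effect of slide cannot be told apart from one of label. Of the 7 genes 3 were called lower in the liver label, where 37.1% of all probes were called lower. These were F2 (-2.28, SE 0.68, adjusted p = 0.00631), F7 (-1.38, SE 0.35, adjusted p = 0.00172) and SERPINC1 (-1.67, SE 0.69, adjusted p = 0.0394). The arrays of the labels overlapped for every gene. PLG differed by -2.0 (SE 0.97) and was not called at adjusted p = 0.0767, whereas its other probe was, at -2.27 (SE 0.98) and adjusted p = 0.048, a call lost in 20 of 29 alternatives (adjusted p up to 0.112). F12 (-1.08, SE 0.59) was not called, and F9 and F13B were not well above background on enough arrays for a fold. The SERPINC1 call was lost without any 1 of 8 arrays (adjusted p between 0.0575 and 0.104) and with the replicate block (0.0548). With spike-in scaling F2 alone was called. The 3 calls were thus a share of the 7 genes near that of all probes, and those of F7 and SERPINC1 depended on the scaling. F9, F12, F13B and the PLG probe with the higher mean were not called between the liver and skeletal muscle labels.

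Across the 8 arrays labelled skeletal muscle, 4 of the genes varied widely. The log2 level of F2 was -5.28, -2.79, 0.82 and -2.47 in ABW replicates 1 to 4 and -4.53, -3.00, -0.72 and -1.46 in LBW replicates 1 to 4. SERPINC1 read -5.21, -3.19, 0.40 and -2.42 in ABW and -4.54, -3.63, -0.95 and -1.32 in LBW. Both were highest on ABW replicate 3 and LBW replicate 3 and lowest on replicate 1 of their groups. F12 read -4.71, -3.45, 0.58 and -2.43 in ABW and -4.40, -2.99, -1.43 and -1.93 in LBW. PLG read -8.06, -4.49, -0.18 and -3.97 in ABW and -8.56, -4.85, -2.18 and -2.43 in LBW. These 4 genes were thus high and low on the same arrays. F7 moved less, between -6.22 and -4.16, and F13B lay between -8.78 and -7.61, not well above background on any.

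The hepatocyte markers varied in the same way on these arrays. The summed level of the 16 genes was 1.73, 2.83, 41.4 and 4.46 in ABW replicates 1 to 4 and 0.531, 2.13, 18.4 and 9.38 in LBW. It was highest on ABW replicate 3 and then LBW replicate 3, as were F2, F12, SERPINC1 and PLG. Only GC of the 16 was not well above background on any of the 8 arrays. The skeletal muscle markers were highest on these arrays for all 9 genes measured. The part of these markers in the levels of the 4 genes was not tested, and in bulk RNA the number of cells of a type and the RNA per cell cannot be told apart.

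**Figure D2:**
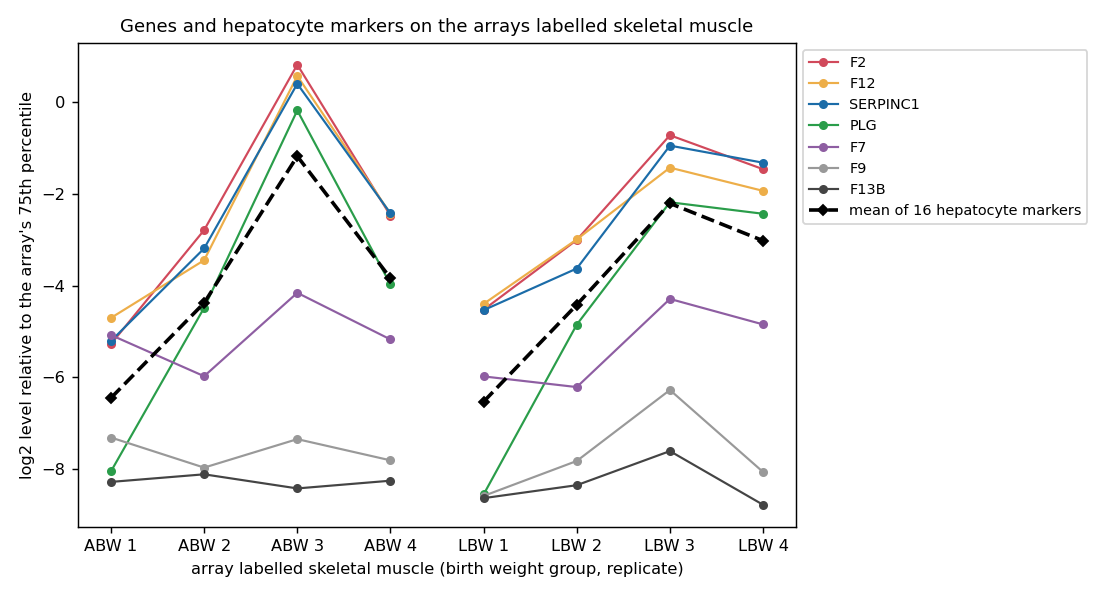
Log2 level of the 7 genes (coloured lines) and the mean of 16 hepatocyte markers (black dashed line) relative to the array's 75th percentile, on each array labelled skeletal muscle; lines join arrays only to guide the eye. F2, F12, SERPINC1, PLG and the marker mean peak on ABW replicate 3 and LBW replicate 3, while F13B stays between -8.78 and -7.61.

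LBW was set against ABW within each label, the comparison the study was made for. In the umbilical cord label F13B was lower in LBW and was called, 1 of the 7 genes, where 0.625% of all probes were called and 0.602% were called lower. Its log2 level was -0.29, -0.71, 1.02 and 0.68 in ABW replicates 1 to 4 and -3.85, -4.12, -3.01 and -3.54 in LBW replicates 1 to 4. Every LBW array lay below every ABW array, the nearest by more than the range within either group. The ABW mean was 0.18 ± 0.81 (SD, n = 4). The LBW mean was -3.63 ± 0.48 (SD, n = 4). The difference was -3.81 (SE 0.43, 95% confidence interval -4.76 to -2.85), or 14.0-fold lower (limma, adjusted p = 0.00707), and the exact two-sided permutation test gave p = 0.0286, the smallest that 4 against 4 arrays allow. The call was lost with spike-in scaling (adjusted p = 0.196) and with the methods' t-test (0.361). F13B is among the genes that the study lists for this comparison from the same arrays, so the call is not independent evidence.

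The LBW arrays of the umbilical cord label were all on slide 5, and the ABW arrays on slides 4 and 6. Against the ABW arrays of slide 4 alone, F13B differed by -3.13 on the log2 scale and was not called (adjusted p = 0.0557). Against those of slide 6 alone it was -4.48 (adjusted p = 0.00339). With slide as a random block the adjusted p was 0.0019. No slide held both groups of this label, so an effect of slide cannot be told apart from one of birth weight.

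F12 and F7 lay in the other direction in the umbilical cord label. For each of them every LBW array was above every ABW array, so that with F13B 3 of 7 genes did not overlap, beside 5.85% of all probes. F12 averaged 7.20 ± 0.71 in the 4 ABW arrays against 8.10 ± 0.17 in the 4 LBW arrays (mean ± SD), a difference of 0.91 (SE 0.37, exact permutation p = 0.0286, adjusted p = 0.53). F7 averaged 1.16 ± 0.63 against 1.94 ± 0.16, a difference of 0.78 (SE 0.34, exact permutation p = 0.0286, adjusted p = 0.556). Neither was called. The study's methods used 1.5-fold and p under 0.05 without adjustment. By limma both genes exceeded these thresholds, as did F13B, which makes 3 of 7 genes beside 8.93% of all probes (3.66% higher and 5.26% lower in LBW). Without ABW replicate 3 or 4 or LBW replicate 2 or 3 the count was 1, and by the methods' t-test it was 1. Among the 6 genes without F13B, which the study lists for this comparison, 2 exceeded the methods' thresholds by limma and 0 were called.

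The slides of the ABW arrays differed for these genes as well. F12 read 7.79 and 7.83 on slide 4 and 6.46 and 6.71 on slide 6. Against slide 4 alone the LBW arrays were higher by 0.29 (SE 0.31), and against slide 6 alone by 1.52 (SE 0.35). For F7 these differences were 0.37 (SE 0.31) and 1.19 (SE 0.41). ABW replicate 4, the array with the highest 75th percentile, held the lowest level of F2, F7, SERPINC1 and PLG among the 8 arrays. Without it the F7 difference was 0.47 (SE 0.28).

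**Figure D3:**
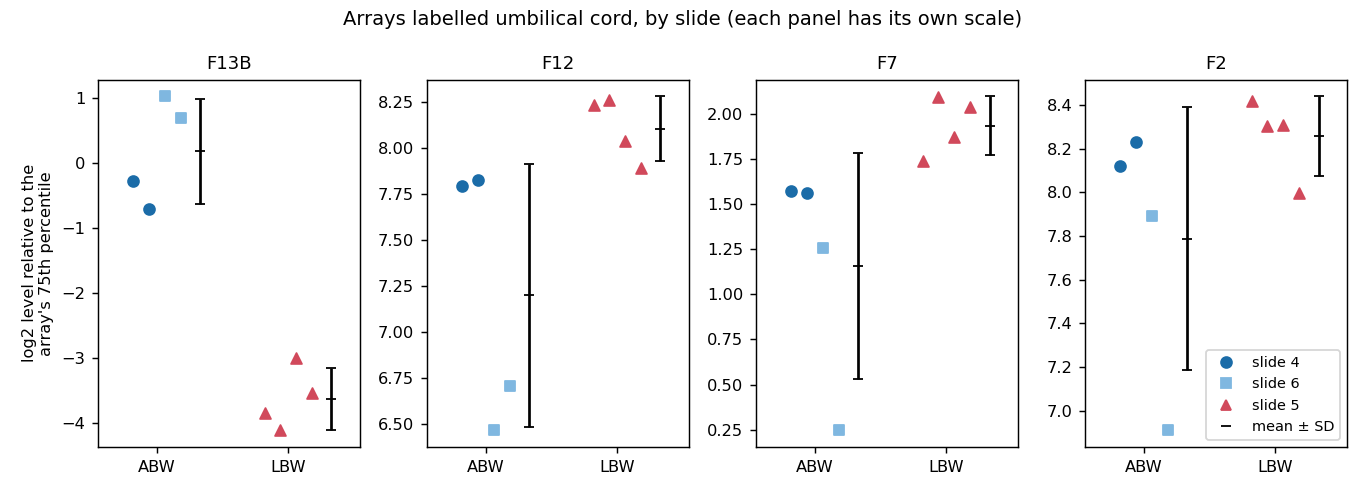
Log2 level of F13B, F12, F7 and F2 relative to the array's 75th percentile on the 8 arrays labelled umbilical cord, ABW at left and LBW at right, with the slide shown by marker and black bars for mean ± SD of 4 arrays; each panel has its own scale. F13B is lower on all LBW arrays than on the ABW arrays of both slides, whereas F12 differs mostly from the ABW arrays of slide 6.

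The other 4 genes showed smaller differences in the umbilical cord label, and their groups overlapped. LBW minus ABW was 0.47 for F2 (95% confidence interval -0.28 to 1.22), 0.26 for SERPINC1 (-0.49 to 1.01), 0.09 for PLG (-0.59 to 0.77) and -0.13 for F9 (-0.83 to 0.58). Their adjusted p lay between 0.696 and 0.952. Over the 7 genes the median difference was 0.26, beside -0.01 for all probes.

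The hepatocyte markers were compared between the same arrays. Of the 16 genes 0 were called between LBW and ABW in the umbilical cord label, and their median difference was 0.03. GC, the vitamin D-binding protein, differed by -2.99 (unadjusted p = 0.00306, adjusted p = 0.217) and AFP, alpha-fetoprotein, by -1.14 (unadjusted p = 0.0127, adjusted p = 0.406), and these 2 exceeded the methods' thresholds. The summed level of the 16 genes was 1339 to 3085 in ABW and 2072 to 4115 in LBW.

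Markers of other cells were set beside these genes, and 0 were called in any list. Of the skeletal muscle genes 7 of 9 lay below 0, and of the matrix and smooth muscle genes 6 of 11 lay above it. All 6 endothelial genes and all 4 macrophage genes tested lay above 0 in LBW minus ABW, with medians of 0.34 and 0.53. All 5 platelet genes and all 5 erythroid genes tested lay below 0, with medians of -0.46 and -0.52. In multiples of the array's 75th percentile, the summed level of the endothelial genes was 0.628 to 1.6 in ABW and 0.97 to 2.79 in LBW, and that of the macrophage genes 42.9 to 60.5 and 54.1 to 132.0. That of the platelet genes was 0.767 to 1.65 in ABW and 0.434 to 1.22 in LBW, and that of the erythroid genes 25.6 to 59.9 and 12.8 to 46.1. The ranges of the groups overlapped for each list, and CD163 of the macrophage list was not well above background on any of the 8 arrays. The part of these cells in the differences of F13B, F12 and F7 was not tested.

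In the skeletal muscle label 0 of 7 genes were called, as was no probe of the 17117 (limma), with 14.7% of all probes at an unadjusted p under 0.05 and none of the 7 genes. The fitted differences lay between -0.33 for PLG and 0.00 for F2, with a median of -0.08 beside 0.07 for all probes. That median is the value of F9, a gene not well above background there. The intervals were wide, from -2.77 to 2.77 for F2 and from -4.33 to 3.66 for PLG, so that a difference of the size seen for F13B in the umbilical cord label would lie inside the interval of PLG. At the methods' thresholds 0 of 7 genes passed by limma, beside 12.2% of all probes, and the methods' t-test also gave 0. The skeletal muscle label has no fold for F9 and F13B, which were not well above background there.

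In the liver label 0 of 7 genes were called and none of all 17117 probes (limma), with 5.99% of all probes at an unadjusted p under 0.05 and none of the 7 genes. Among F2, F7, F12, SERPINC1 and PLG the differences lay between -0.39 for SERPINC1 and 0.33 for PLG. The median of the 7 fitted differences was 0.01 beside 0.06 for all probes. No gene exceeded the methods' thresholds, by limma or by the methods' t-test, beside 4.71% of all probes by limma. An exact test of 3 against 3 arrays cannot give a p under 0.1. F9 and F13B have no fold between the groups here, since F9 was well above background on 1 array and F13B on none. Within slide 3, which held the 3 ABW arrays and LBW replicate 1, the differences lay between -0.82 for SERPINC1 and 0.97 for F7.

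**Figure D4:**
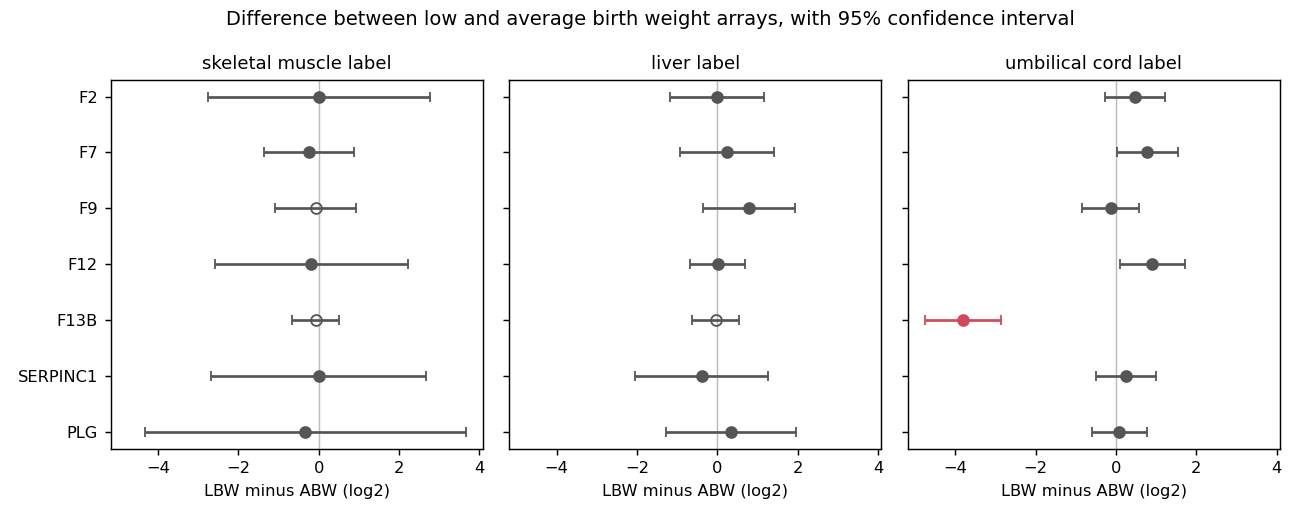
LBW minus ABW on the log2 scale (horizontal axis) for the 7 genes, with 95% confidence intervals, in the skeletal muscle, liver and umbilical cord labels; red marks the called gene and open circles genes not well above background in either group. F13B in the umbilical cord label, at -3.81, is the single called difference. In the other labels every interval includes 0.

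F13B was also the single gene of the 7 whose LBW minus ABW differed between labels (interaction in the fit of the 6 groups, adjusted p = 0.000646), where 1.01% of all probes were called. With spike-in scaling it was not called (adjusted p = 0.28). Its difference in the umbilical cord label minus that in the liver label was -3.76 (SE 0.52), and minus that in the skeletal muscle label -3.73 (SE 0.48). F13B was not well above background under either of those labels, so a change there could not have been seen. For the other 6 genes the adjusted p of the interaction lay between 0.85 and 0.994.

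The other genes of the pathway were a list of 33, of which 30 were on the array. Between the umbilical cord and liver labels 20 of 30 were called higher and 10 lower, beside 35.6% and 31.3% of all probes. Through the umbilical cord groups alone, FGB, KLKB1, HRG, SERPINA10 and SERPIND1 had passed the filter. F13A1 and TFPI2 had passed it through the liver groups alone. All 3 fibrinogen chains and all 4 genes of vitamin K-dependent carboxylation and factor secretion were called higher. So were KLKB1, KNG1 and HRG, the 3 genes listed with the contact system. FGG, the fibrinogen gamma chain, was at least 19610-fold higher by its brighter probe and by 13.53 on the log2 scale by its other probe. HRG, histidine-rich glycoprotein, was at least 6008-fold higher and CPB2, the carboxypeptidase that protects fibrin from lysis, at least 4010-fold. SERPINA5, the protein C inhibitor, and KNG1, the kininogen gene, had fitted differences of 14.88 and 13.68, each with 2 of 6 arrays labelled liver well above background. The other probe of FGA gave 15.04, where its brighter probe gave 10.15, so the order among these genes is not settled. The 10 genes called lower included F3, the tissue factor that starts coagulation outside the vessel, VWF, and THBD (thrombomodulin, which turns thrombin toward protein C).

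Between the umbilical cord and skeletal muscle labels 20 of 30 were called higher, 7 lower and 3 not called, beside 29.1% higher and 35.8% lower of all probes. By the brighter probe of each gene, the largest fitted differences were SERPIND1 (heparin cofactor II, 11.66), HRG (11.29), FGB (11.27), FGG (11.14) and KLKB1 (plasma prekallikrein, 10.87). These were well above background on 1, 4, 3, 6 and 3 of the 8 arrays labelled skeletal muscle. The other probes of FGA and FGG gave 11.75 and 11.65, so the order among these genes is not settled. Between the liver and skeletal muscle labels 15 were called higher and 10 lower, beside 28.1% and 37.1% of all probes, led by F3 (7.36) and SERPINE2 (protease nexin-1, 6.17). TFPI2 (tissue factor pathway inhibitor 2) was at least 13.2-fold higher and FGG at least 8.68-fold lower, where the other FGG probe gave a log2 difference of -1.88 (adjusted p = 0.0201). SERPINA5 had a fitted difference of -4.57, with 2 of 6 arrays labelled liver well above background. The median over the 30 genes was 2.63, 3.43 and 0.63 in the 3 comparisons, beside 0.13, -0.11 and -0.21 for all probes.

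**Figure D5:**
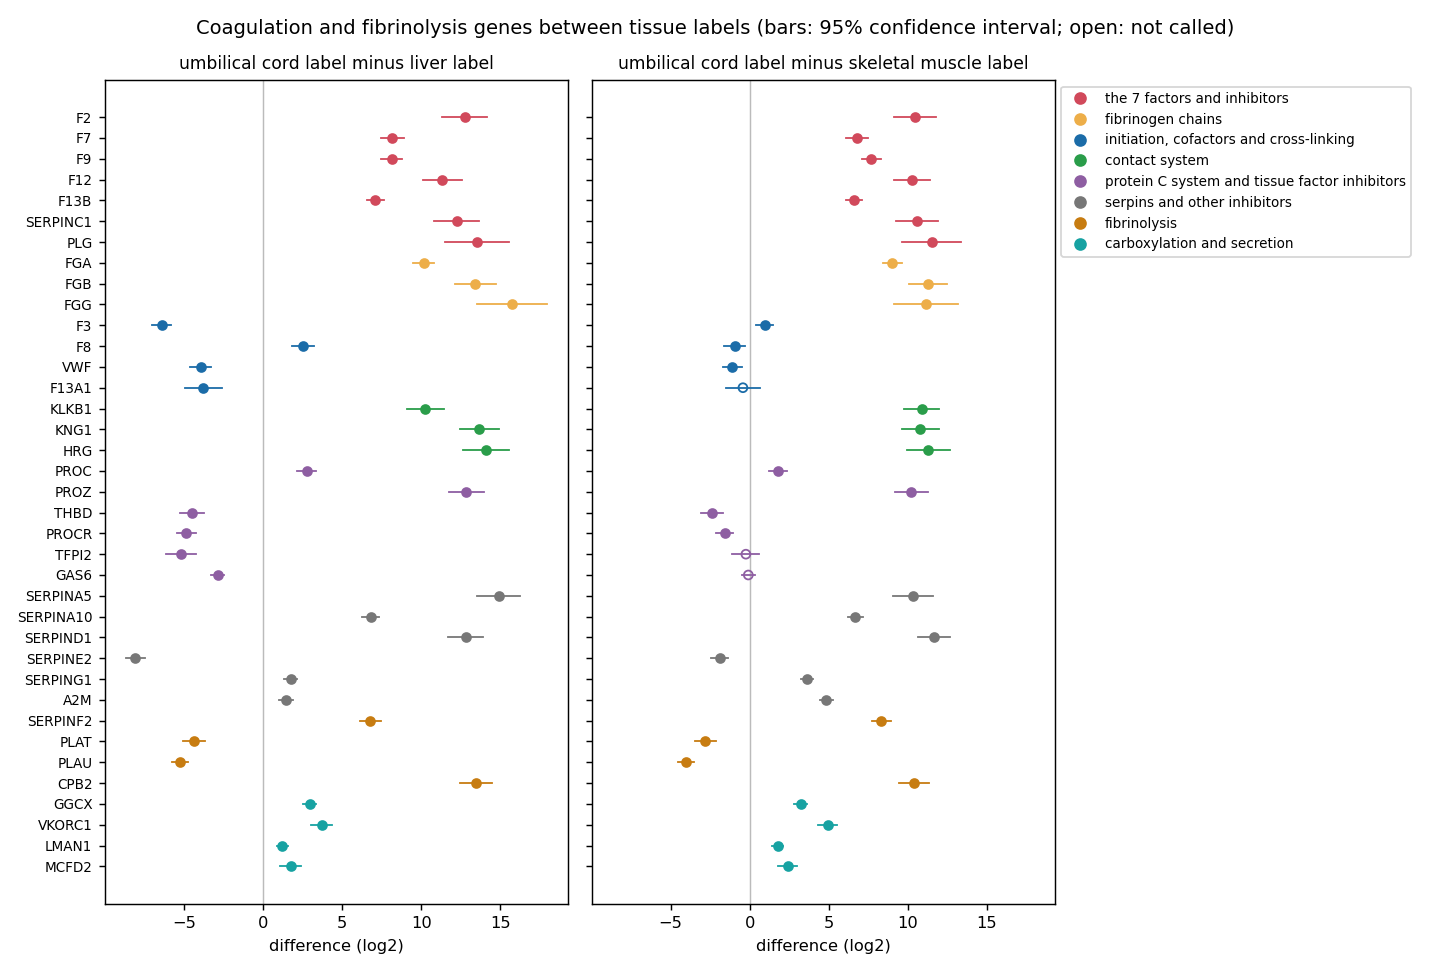
Difference on the log2 scale with 95% confidence interval for the 7 genes (red) and 30 further genes of coagulation and fibrinolysis, coloured by list, between the umbilical cord and liver labels (left) and the umbilical cord and skeletal muscle labels (right); open circles were not called. Over both comparisons the 7 genes lie between 6.58 and 13.50, and 10 of the 30 further genes lie to the left of 0 in the comparison with the liver label, from SERPINE2 (-8.08) to GAS6 (-2.88).

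Between LBW and ABW none of the 30 genes was called in any label (limma). In the umbilical cord label their median difference was -0.05. The 4 genes of carboxylation and secretion all lay below 0, between -1.46 and -0.59. Of the 30, 3 exceeded the methods' thresholds, a share near the 8.93% of all probes. All 3 were lower in LBW, where 5.26% of all probes were lower, and they are named here after their values were seen. These were VKORC1 (-1.46, SE 0.56), the vitamin K epoxide reductase, GGCX (-0.93, SE 0.38), the carboxylase that vitamin K serves, and PROC (-1.41, SE 0.53), the gene of protein C. Their adjusted p were 0.492, 0.533 and 0.481. In the skeletal muscle label 0 and in the liver label 1, SERPINA5, exceeded the same thresholds, beside 12.2% and 4.71% of all probes. SERPINA5 was not well above background on any LBW array there, and ABW was at least 2.08-fold higher (adjusted p = 0.815).

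The probes most like the mean of the 7 genes over the 22 arrays were those of NM_003049, NM_002216, FGB (NM_005141), NM_001077 and NM_001086, with Pearson's r between 0.9971 and 0.9985. These values rest on the gap between the umbilical cord label and the others, which all 7 genes share. Over the 8 arrays labelled umbilical cord alone they were NM_005347, NM_022369, the probe A_01_P017300, NM_000782 and NM_004949, with r between 0.9306 and 0.9446. The mean there includes F13B, which differed by -3.81 between LBW and ABW, so these r need not describe the other genes. The 8 arrays share slides and scaling, and these r are given as a description.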

How the data were processed

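RNA of 22 samples had been hybridised to single-colour Agilent rhesus macaque arrays, 1 array each. Per the file headers, the authors read spot intensities with Agilent Feature Extraction 10.1.1.1 (10.5.1.1 on umbilical cord ABW replicates 3 and 4), which subtracted the background to give a processed intensity. The authors also deposited a table of normalized log2 values, made with the 75th percentile as scale and a baseline per probe, which served as an alternative. From the processed intensities, the 2 spots of each probe were averaged, log2 was taken and the 75th percentile of each array was subtracted. A probe was kept where 75% or more of the arrays in 1 or more of the 6 groups read it well above background (17117 of 20217). The precision is limited by 3 or 4 arrays per group.

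LBW was compared with ABW within each label with limma 3.58.1 (R 4.3.3), and tissue labels and the interaction were taken from a fit of all 6 groups. P-values were adjusted over all probes kept (Benjamini-Hochberg), and a call is an adjusted p under 0.05. Exact two-sided permutation tests (scipy 1.17.1) were run for single genes. A gene with several probes was given by the one with the highest mean. Where no array of a group was well above background, a lower bound of the fold is given against the lowest signal that was. The fits were tested on simulated data with independent noise and no effect of slide, so that test cannot speak to effects of slide. A result of 1 pathway gene is not reported here, and its gene was left out of the list. The members and lists were chosen with earlier results of these data known. Further pathway genes were named by the largest change among those called, at most 5 per comparison, with exceptions said in place. Alternatives were other background corrections, scalings, filters and tests, blocks for replicate number and slide, and leaving out each array. The methods' t-test on the deposited values was added after seeing the data.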

Additional observations from a re-analysis of the deposited data

Results flagged for a closer look

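LBW minus ABW of F13B differed between the tissue labels in the interaction term of the fit of the 6 groups (limma, adjusted p = 0.000646). It was -3.81 in the umbilical cord label, while F13B was not well above background in the skeletal muscle and liver labels, where no change could have been seen. All 4 LBW arrays lay below all 4 ABW arrays in the umbilical cord label. Of 32 groups of 4 arrays, 0 held an array set apart from the rest by Dixon's limit, which chance passes in about 1 of 20 groups.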

How the results depend on the processing

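All 7 genes were called higher in the umbilical cord label than in the liver and skeletal muscle labels under every alternative run, in 224 and 210 values. F13B kept its direction in all 23 alternatives of LBW against ABW in the umbilical cord label (-4.48 to -2.55), and its call in 19. The call was lost with spike-in scaling (adjusted p = 0.196), with the methods' t-test (0.361; on the deposited values 0.354) and against the ABW arrays of slide 4 alone (0.0557), which brought the genes called from 1 to 0. Without single arrays it remained called, at -4.10 to -3.53, 1 gene each time. The genes past the methods' thresholds there fell from 3 to 1 under the fit of all 6 groups, spike-in scaling, both t-tests and slide 4 alone, and were 1 to 3 without single arrays. In the liver label they were 0 to 1 without single arrays (1 without LBW replicate 1). Liver against skeletal muscle gave 3 genes, 5 with normexp, 1 with spike-in scaling and 2 to 5 without single arrays. The interaction gave 1 gene and 0 with spike-in scaling, where that of F13B had an adjusted p of 0.280. Spike-in scaling, on 7 probes, moved the median of all probes to -0.44 in the umbilical cord label, 0.21 in the liver label and -0.39 in the skeletal muscle label. The causes were not tested. Differences of genes not called changed sign in 32 of 137 values in the skeletal muscle label, 20 of 136 in the liver label and 9 of 138 in the umbilical cord label.

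Over all probes, the 107 calls of LBW against ABW in the umbilical cord label became 483 with the fit of all 6 groups, 22 with normexp, 2 with spike-in scaling, 65 with quantile normalization, 182 with slide as a random block, 0 with either t-test and 0 with slide 4 alone, and 34 to 94 without single arrays. The 0 calls in the skeletal muscle label became 4 (6 groups), 3 (floor on dim signals) and 7 (stricter filter), and 0 to 2 without single arrays, and the 0 in the liver label 2 (6 groups), 10 (spike-in scaling) and 0 to 1. The 11457 calls between umbilical cord and liver became 6992 (spike-in scaling), 7599 (within slide 4) and 4837 (slide as a fixed block), the 11174 between liver and skeletal muscle 5652 (spike-in scaling), and the 173 of the interaction 33 (normexp), 3 (spike-in scaling) and 118 to 374 without single arrays. Same-numbered ABW and LBW arrays of a label, which come from different animals, had correlations of -0.22 to 0.30 in their deviations from the group means. The methods describe liver and muscle taken from the same neonates. Whether arrays of different labels share an animal was not tested, and the fit of all 6 groups treated the arrays as independent. With the replicate block F13B stayed called (adjusted p = 0.0114), and 65 probes were called in the umbilical cord label, of which 62 were among the 107.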
